A study of Homo sapiens with 6 samples.

Results

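RAB GTPase genes were followed in DU145 cells, a human prostate cancer cell line, with and without overexpression of TFEB, a transcription factor known for switching on lysosomal and autophagy genes. Members were taken as the protein-coding rows of the deposited expression table whose gene name is RAB, a number and at most 1 further letter. This rule found 36 of the 10542 listed genes, and 63 protein-coding genes of the GENCODE 29 annotation carry such a name. RNA-sequencing had been done on 3 libraries of DU145-TFEB, which received a lentivirus carrying TFEB, and 3 of DU145-vector, which received the empty vector lentivirus. Both groups are stable lines selected with puromycin, the promoter behind TFEB and whether a line is 1 clone are not given in the sources used here, and the labels do not say whether the 3 libraries of a group came from separate cultures. The paper speaks of independent experiments for its assays without tying them to these libraries. The p-values therefore measure the spread between these libraries, which may be technical.

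RAB proteins are small switches of membrane traffic. A RAB bound to GTP sits on the membrane of one particular compartment and recruits effectors, such as tethers, motors and sorting complexes, that move vesicles or fuse them. Exchange factors load the GTP, GTPase-activating proteins stimulate its hydrolysis, and prenyl groups with their escort and extraction proteins hold the switch on or off the membrane. Endosomes ripen toward lysosomes as the RAB on their surface is exchanged, so the family maps the routes into and out of the lysosome.

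The counts of TFEB itself, after normalization, were 6325, 6301 and 6036 with the TFEB virus and 127.4, 123.9 and 125 with the empty vector. Every library thus matched its label. The libraries held between 13999961 and 16511477 reads on listed genes, and the reads of a RAB gene ranged down to 6 in 1 library, with 30 of the 36 members at 100 reads or more in every library. Of the epithelial markers checked, KRT8, KRT18 and KRT19 were listed, and no leukocyte or stromal marker was listed. Every listed gene has a deposited adjusted p-value below 0.05, so the table is itself a selection made on these libraries. The other RAB genes are not analysed here.

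On the deposited scale, 14 RAB genes were higher and 22 were lower in DU145-TFEB than in DU145-vector at an adjusted p below 0.05 (limma on log2(normalized count + 1), Benjamini-Hochberg adjustment over all listed genes). Among all listed genes, 47.6% were higher and 52.4% were lower by the same test, so the split of the family is near that of the table. With the further requirement of a log2 fold change beyond 1.5 in size, RAB38 was higher, against 2.54% of all listed genes. RAB30, RAB8B, RAB3B, RAB33B and RAB9B were lower at both cutoffs, against 16.5% of all listed genes. With DESeq2 size factors RAB3D joined the higher members and RAB33B and RAB9B left the lower ones, and with quantile normalization RAB3D and RAB26 joined and RAB33B, RAB9B and RAB8B left. The adjusted p of RAB2A, RAB8A, RAB12, RAB14, RAB28 or RAB41, members with small changes or few reads, exceeded 0.05 in some of the other scalings or with DESeq2 on the reads. The median log2 fold change was -0.45 over the 36 members and -0.36 over all listed genes. The 2 groups did not overlap for any of the 36 members, and this holds for 99.3% of the listed genes. The values are bulk measurements, in which fewer cells expressing a gene and less RNA per cell cannot be told apart.

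**Figure D1:**
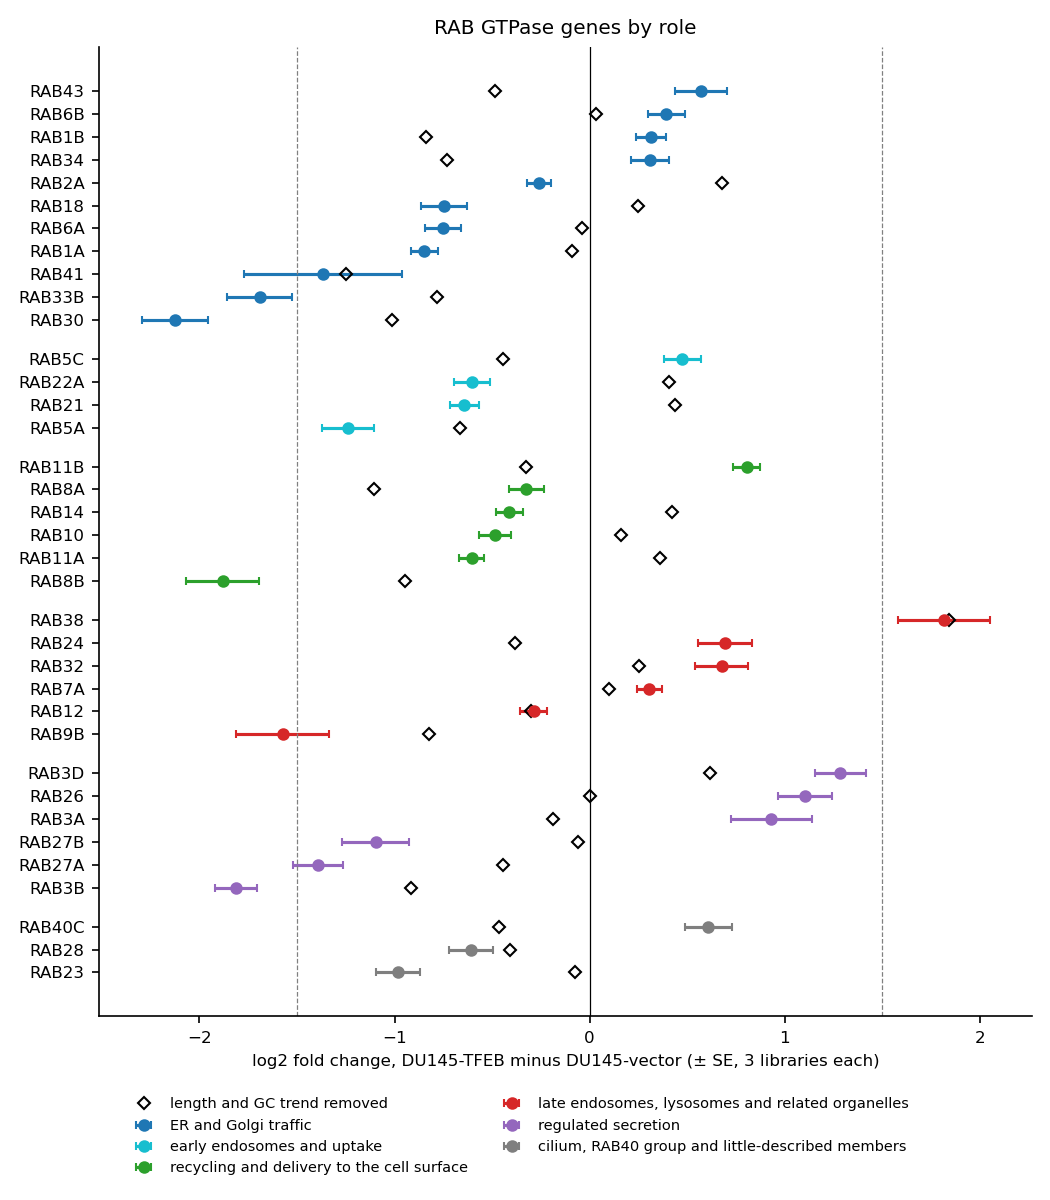
The x axis is the log2 fold change of DU145-TFEB over DU145-vector (log2(normalized count + 1), filled points with SE, 3 libraries a group) for the 36 RAB genes, coloured by role, and open diamonds are the same contrast after the trend against GC content and gene length was removed. Dashed lines mark 1.5 in size: RAB38 alone lies above, and RAB30, RAB8B, RAB3B, RAB33B and RAB9B lie below, while no member is below -1.5 among the diamonds.

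The direction of a RAB gene went with the base composition of its transcript. The 14 higher members had transcripts with 46.5% to 64.4% GC (median 59.1%), and the 22 lower members had 35.9% to 54.0% GC (median 38.8%). Below 50% GC lay 21 of the 22 lower members and 2 of the 14 higher members, the latter being RAB38 and RAB7A. The 3' untranslated regions had a median of 3058.5 bases in the lower members and 840.5 bases in the higher members. Across the 36 genes the Spearman correlation of the log2 fold change with transcript GC content was 0.76, and across all 10537 listed genes with a GC content it was 0.74. These are descriptions across genes measured in the same 6 libraries, and the relation is a property of the table as a whole.

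When the trend against GC content and gene length was removed from each library, 9 RAB genes were higher, 18 were lower and 9 did not pass at an adjusted p below 0.05 (limma). For all listed genes the corresponding shares were 15.2% higher and 54.5% lower. The median log2 fold change was then -0.32 over all listed genes and -0.24 over the 36 members. RAB38 still passed both cutoffs, against 1.55% of all listed genes, and 0 RAB genes were lower at both, against 4.04%. Of the 14 members higher on the deposited scale, 5 stayed above zero and 2 of these passed the test, while 7 were lower with an adjusted p below 0.05. Of the 22 lower members, 15 stayed below zero and 11 of these passed, while 7 were higher with an adjusted p below 0.05. In all 19 other ways of processing the values, 9 members kept their direction and an adjusted p below 0.05: RAB38 and RAB3D were higher, and RAB30, RAB8B, RAB3B, RAB33B, RAB9B, RAB5A and RAB27A were lower. Values with the trend removed are given beside those on the deposited scale below, since 16 of the 36 members turned in sign with it. These signs are read against zero, whereas the median over all listed genes was itself below zero. RAB11B (-0.32) and RAB24 (-0.38), counted as turned, lay near that median. RAB26 and RAB3A, also counted, did not pass the test with the trend removed.

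**Figure D2:**
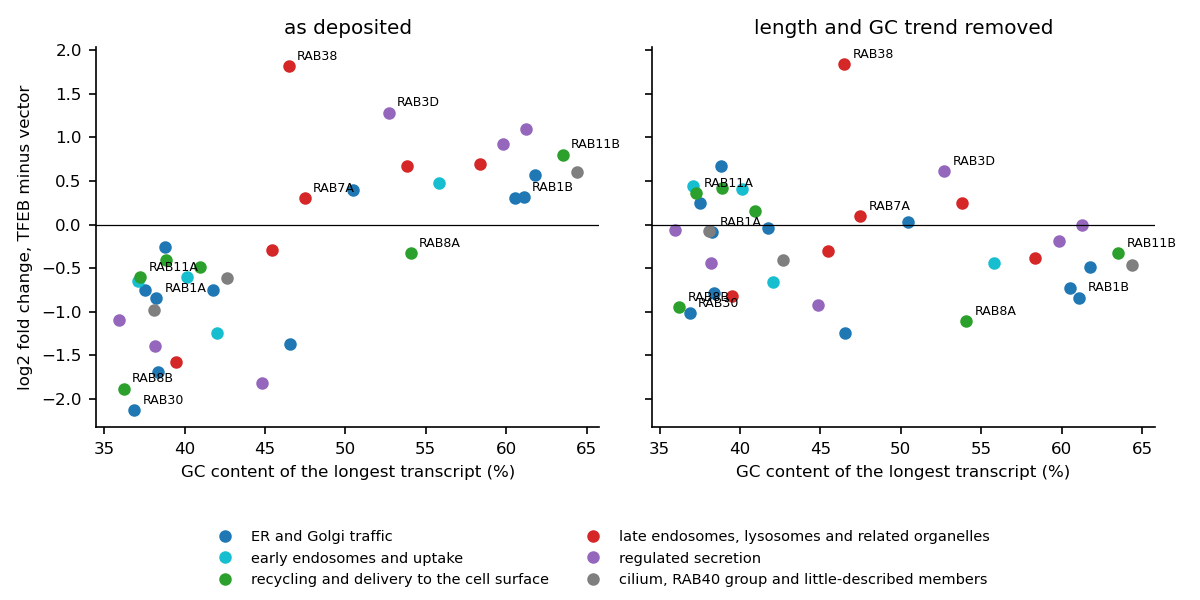
The GC content of the longest annotated transcript (x axis, percent) is plotted against the log2 fold change of DU145-TFEB over DU145-vector (y axis) for the 36 RAB genes, as deposited on the left and with the length and GC trend removed on the right. On the left the points climb with GC content (Spearman correlation 0.76, 36 genes), on the right this slope is gone (-0.17), and RAB38 stands at the top in both.

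The contrast in base composition is visible in some pairs of closely related genes. The first 30 codons are shown for the RAB11 pair, the switches of the recycling endosome, as an example. They are also shown for the RAB1 pair, the switches between endoplasmic reticulum (ER) and Golgi. The members of each pair went in opposite directions on the deposited scale, as did those of RAB3, RAB5 and RAB6 pairs, which are not shown. Sequences are coding strand, 5′ to 3′, from the GENCODE 29 transcripts (GRCh38), and capitals mark the third base of a codon where it is G or C.
RAB11A: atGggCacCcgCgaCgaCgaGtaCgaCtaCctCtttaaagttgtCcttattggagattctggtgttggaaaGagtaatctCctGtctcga
RAB11B: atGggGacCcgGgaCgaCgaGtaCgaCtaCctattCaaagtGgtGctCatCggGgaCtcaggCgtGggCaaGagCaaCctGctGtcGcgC
RAB1A: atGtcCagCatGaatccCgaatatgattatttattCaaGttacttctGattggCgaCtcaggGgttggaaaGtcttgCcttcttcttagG
RAB1B: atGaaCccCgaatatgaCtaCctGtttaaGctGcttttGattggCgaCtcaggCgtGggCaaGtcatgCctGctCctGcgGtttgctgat
In this stretch 15 of the 30 codons of RAB11A and 27 of those of RAB11B end in G or C. In the RAB1 pair 14 codons of RAB1A and 20 of RAB1B do. Among the pairs not shown, the number was 12 in RAB5A and 15 in RAB5C. It was 13 in RAB3B, the lower RAB3 gene, 16 in RAB3D and 25 in RAB3A. In the RAB6 pair the order was reversed, with 22 in RAB6A, the lower member, and 20 in RAB6B. Other lower members, such as RAB12 (28) and RAB21 (27), also had many codons ending in G or C in this stretch. Over whole coding sequences the median share of codons ending in G or C was 76.3% in the 14 higher members and 44.8% in the 22 lower members.

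Counts of the role groups are to be read against 47.6% higher and 52.4% lower among all listed genes, whose median was -0.36. With the trend removed these were 15.2%, 54.5% and -0.32. Among the 6 members of late endosomes, lysosomes and related organelles, 4 were higher and 2 were lower. Their median on the log2 scale was 0.49, the highest of the 6 role groups on the deposited scale. With the length and GC trend removed this median was -0.10, below those of early endosomes (-0.02) and of recycling (-0.08), with 1 member higher, 3 lower and 2 not passing. RAB38 and RAB32 are sister switches that deliver cargo to lysosome-related organelles such as melanosomes. RAB38 (ENSG00000123892, chr11:88113242-88175467, minus strand, GRCh38) had normalized counts of 69.5, 58.2 and 47.8 in DU145-TFEB and 14.7, 14.6 and 18 in DU145-vector. All 3 DU145-TFEB libraries lay well above the control libraries. The mean was 3.71-fold higher, with a log2 fold change of 1.82 ± 0.23 (SE; adjusted p = 7.09e-05, limma), and with the trend removed it was 1.84. RAB32 had a mean of 825.3 ± 133.8 against 514.4 ± 65.9 (SD, n = 3 each) and a log2 fold change of 0.68, which was 0.25 with the trend removed and then missed the threshold (adjusted p = 0.0539, limma).

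RAB7A drives the fusion of late endosomes and autophagosomes with lysosomes. Its normalized counts were 5453, 5447 and 5523 in DU145-TFEB and 4678, 4273 and 4357 in DU145-vector. The DU145-TFEB libraries were nearly equal and all lay above the controls. This is a 1.23-fold difference (log2 fold change 0.30 ± 0.06, adjusted p = 0.0014, limma), and without the trend this change was 0.10 (adjusted p = 0.157, limma). RAB24, a member linked to autophagy, had a log2 fold change of 0.69 that was -0.38 with the trend removed, and 44.8% of its exonic length lies under exons of its neighbour MXD3. RAB12, which directs the transferrin receptor to lysosomes, was lower by 0.29 on the log2 scale and by 0.30 with the trend removed, although this call was lost under 3 other scalings of the libraries and with DESeq2 on the reads.

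RAB9B, the close relative of the RAB9 switch that returns cargo from late endosomes to the Golgi, was the lowest member of this group. Its gene lies at chrX:103822322-103832228 (minus strand). The normalized counts were 18.9, 17.3 and 24.9 in DU145-TFEB and 71.5, 66.3 and 50 in DU145-vector. No DU145-TFEB library reached the lowest control library. The mean fell to 32.6% of the control (log2 fold change -1.57 ± 0.24, adjusted p = 0.000197, limma), and without the trend this change was -0.82. RAB9B is the member nearest the fold-change cutoff and dropped below it when DU145-TFEB replicate 2 or DU145-vector replicate 1 was left out (-1.47 in either case).

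**Figure D3:**
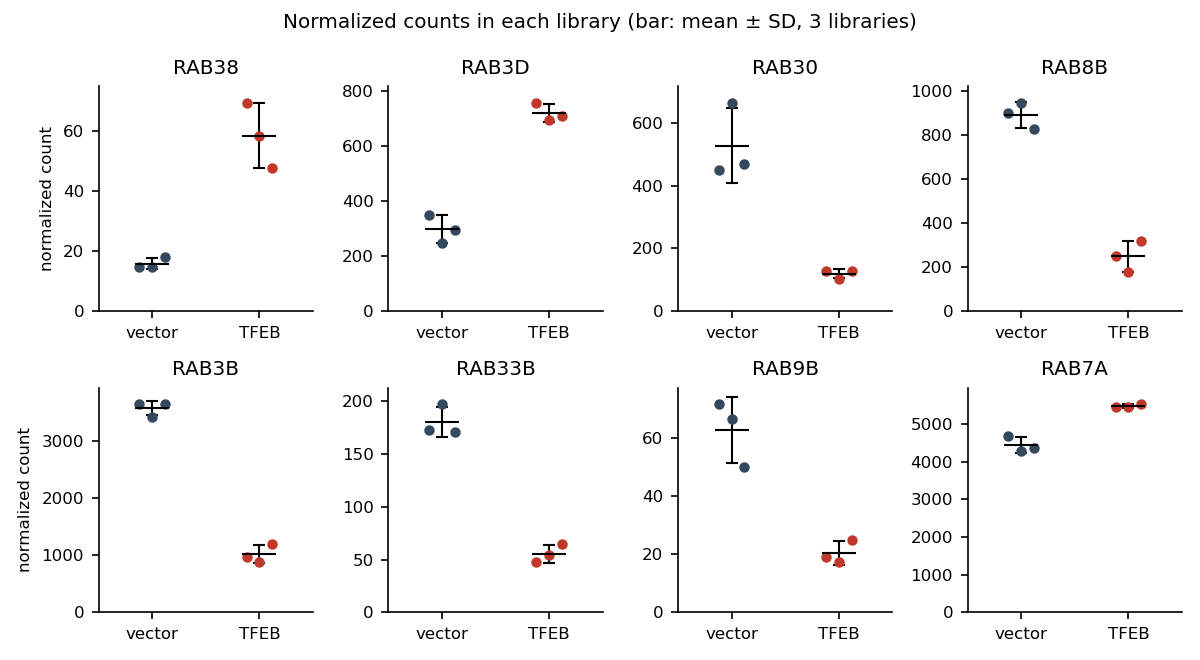
Normalized counts (y axis, from 0) of 8 RAB genes in each DU145-vector (dark) and DU145-TFEB (red) library, with the mean and SD of 3 libraries as bars. RAB38, RAB3D and RAB7A are higher in all DU145-TFEB libraries and RAB30, RAB8B, RAB3B, RAB33B and RAB9B are lower, with no overlap in any panel. With the length and GC trend removed RAB7A no longer passes the test.

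ER and Golgi traffic was the largest role group, with 4 members higher and 7 lower and a median log2 fold change of -0.75. With the trend removed 2 were higher, 6 lower and 3 did not pass, with a median of -0.48. RAB30 is a Golgi switch needed for an ordered Golgi stack (chr11:82973133-83071923, minus strand). It had normalized counts of 127.3, 102.8 and 126.7 in DU145-TFEB and 448.9, 665.2 and 470.0 in DU145-vector, the largest fall of the family. DU145-vector replicate 2 stood above the other control libraries, and all 3 controls stood far above the DU145-TFEB libraries. The log2 fold change was -2.13 ± 0.17 (adjusted p = 6.14e-06, limma) and -1.01 with the trend removed.

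RAB33B binds the autophagy protein ATG16L1 and acts at the Golgi (chr4:139453232-139476609, plus strand). It had 47.4, 54.6 and 64.4 normalized counts in DU145-TFEB and 172.5, 197.0 and 171.0 in DU145-vector. The 2 groups were apart by more than the range within either. Its mean was 30.8% of the control (log2 fold change -1.69 ± 0.17, adjusted p = 1.56e-05, limma), and the log2 fold change was -0.78 with the trend removed. RAB41, another Golgi member, was the scarcest in reads, with normalized counts of 8.42, 5.46 and 18.7 against 31.4, 22.4 and 26.0. Its log2 fold change of -1.37 had an SE of 0.41, the widest of the family, and was -1.25 with the trend removed.

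The highest member of this group was RAB43, a switch of the ER to Golgi route, with normalized counts of 143.1, 148.3 and 160.9 against 99.0, 102.4 and 102.0. Its libraries did not overlap, the log2 fold change was 0.57 ± 0.13 (adjusted p = 0.00262, limma), and it was -0.48 with the trend removed. Exons of the read-through gene ISY1-RAB43 cover 79.3% of its length, so its count is uncertain. RAB34, which works at the Golgi and in building the cilium, had a log2 fold change of 0.31 that was -0.73 with the trend removed. RAB2A, which acts between the ER and Golgi, and RAB18, found on the ER and on lipid droplets, had log2 fold changes of -0.26 and -0.75, which were 0.68 and 0.25 with the trend removed. RAB2A therefore turned from the mildest fall of the family to its largest rise after RAB38.

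On early endosomes 1 member was higher and 3 were lower. Their median on the log2 scale was -0.62, and with the trend removed 2 were higher and 2 lower. RAB5A, the switch that fuses incoming endocytic vesicles with early endosomes, had normalized counts of 377.7, 360.3 and 496.3 in DU145-TFEB and 1030, 994.8 and 871.0 in DU145-vector. Every DU145-TFEB library was below every control library. The log2 fold change was -1.24 ± 0.13 (adjusted p = 2.39e-05, limma), and -0.66 with the trend removed. Its paralog RAB5C had 1161, 1325 and 1075 against 812.6, 896.3 and 845.0, a log2 fold change of 0.47 that was -0.44 with the trend removed. RAB21, known for the uptake of integrins, and RAB22A, known for sorting on early endosomes, had log2 fold changes of -0.64 and -0.60 that were 0.44 and 0.41 with the trend removed. RAB5A was the only one of the 4 early endosome members whose direction was the same on both scales.

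In recycling and delivery to the cell surface 1 member was higher and 5 were lower. Their median on the log2 scale was -0.45, and with the trend removed 3 were higher and 3 lower. RAB8B sends Golgi vesicles to the plasma membrane (chr15:63189469-63267782, plus strand). It had normalized counts of 250.4, 175.6 and 316.7 in DU145-TFEB and 898.8, 946.0 and 827.0 in DU145-vector. The spread among the DU145-TFEB libraries was wide, yet the highest was far below the lowest control. The log2 fold change was -1.88 ± 0.19 (adjusted p = 1.61e-05, limma) and -0.95 with the trend removed. Its sister RAB8A was lower too, with 531.4, 612.4 and 562.8 against 731.2, 701.2 and 703.0. The log2 fold change of RAB8A was -0.33, it was -1.10 with the trend removed, and it turned to 0.07 under quantile normalization (adjusted p = 0.476, limma). RAB10, which carries glucose transporters to the surface, and RAB14, which links endosomes with the Golgi, had log2 fold changes of -0.48 and -0.41, which were 0.16 and 0.42 with the trend removed.

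Regulated secretion was split evenly, with 3 members higher, 3 lower and a median log2 fold change of -0.08, and with the trend removed 1 was higher, 2 were lower and 3 did not pass. RAB3B is a switch of secretory vesicle release (chr1:51907956-51990764, minus strand). It had normalized counts of 979.6, 891.7 and 1207 in DU145-TFEB and 3653, 3436 and 3654 in DU145-vector. The DU145-vector libraries lay close together and far above all DU145-TFEB libraries. The mean fell to 28.6% of the control (log2 fold change -1.81 ± 0.11, adjusted p = 2.49e-06, limma), and the log2 fold change was -0.92 with the trend removed.

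RAB3D, which sits on secretory granules, went the other way, with normalized counts of 758.7, 694.3 and 709.2 in DU145-TFEB and 350.9, 248.7 and 294.0 in DU145-vector. All DU145-TFEB libraries were above the highest control. The mean was 2.42-fold higher (log2 fold change 1.28 ± 0.13, adjusted p = 1.79e-05, limma), and the log2 fold change was 0.62 with the trend removed. RAB26, a secretory granule member, rose from a mean of 176.1 ± 12.3 to 381.5 ± 61.0 (SD, n = 3 each), and RAB3A, the switch of synaptic vesicles, from 55.6 ± 13 to 105.5 ± 12.9. The log2 fold changes of RAB26 and RAB3A were 1.10 and 0.93, and neither passed once the trend was removed (0.00 and -0.19, adjusted p = 0.999 and 0.453, limma). RAB27A and RAB27B, which dock lytic granules and exosome-bearing endosomes at the plasma membrane, fell together. RAB27A had 192.6, 225.7 and 243.0 against 584.2, 634.9 and 518.0, and RAB27B had 89.4, 94.6 and 131.9 against 209.8, 245.8 and 215.0. Their log2 fold changes of -1.39 and -1.10 became -0.44 (adjusted p = 0.00396, limma) and -0.06 (adjusted p = 0.724, limma) with the trend removed.

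Of the 3 remaining members, RAB23, an inhibitor of Hedgehog signalling, had 232.5, 244.8 and 262.7 against 477.4, 540.3 and 451.0. Its log2 fold change was -0.98 ± 0.11 (adjusted p = 3.41e-05, limma), it was -0.07 with the trend removed (adjusted p = 0.504, limma), and exons of BAG2 on the opposite strand cover 57.7% of its length. RAB28, a cilium protein, had a log2 fold change of -0.61, which was -0.41 with the trend removed. RAB40C, which recruits a ubiquitin ligase through its SOCS box, had 608.2, 728.9 and 607.4 against 456.8, 368.7 and 450.0. The log2 fold change of RAB40C was 0.61 ± 0.12 (adjusted p = 0.000991, limma) and -0.46 with the trend removed. Exons shared with another gene occur in 19 of the 36 members, 16 of them with a gene on the opposite strand, and the strand setting of the counting is not given in the sources used here. Pseudogenes named after RAB5C, RAB9B, RAB11A, RAB28 and RAB43 are annotated and could share reads with them.

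Paralogs, which share most of their protein sequence, were compared as log2 ratios within each library, a measure that library scaling barely touches. There were 9 pairs in 7 sets. In 6 pairs the members went in opposite directions on the deposited scale, and in 8 pairs the 2 groups of libraries did not overlap. With 3 against 3 libraries, no overlap gives an exact two-sided permutation p of 0.1, the smallest possible, and 0.1125 after adjustment over the 9 pairs. Of all listed genes taken singly, 99.3% did not overlap, and 47.6% were higher and 52.4% lower. Shares over other pairs of listed genes are not given here, so these counts cannot be read as a trait of paralogs.

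The log2 ratio of RAB11B over RAB11A was 0.16, 0.15 and 0.13 in DU145-TFEB and -1.28, -1.35 and -1.16 in DU145-vector. The ratio was higher in every DU145-TFEB library than in any control. Per kilobase of exonic length, which allows the 2 genes to be set side by side, RAB11B stood at 949.0 ± 19.5 and RAB11A at 372.8 ± 3.16 in DU145-TFEB, while in DU145-vector they overlapped at 543.3 ± 22.9 and 567.0 ± 18.1 (SD, n = 3 each). RAB11A had normalized counts of 2127, 2130 and 2097 in DU145-TFEB and 3305, 3253 and 3107 in DU145-vector. RAB11B had 2375, 2369 and 2289 against 1361, 1279 and 1387. The SDs of this ratio were the smallest of the 9 in both groups. The 2 genes had log2 fold changes of -0.60 ± 0.06 and 0.80 ± 0.07 (SE; adjusted p = 2.22e-05 and 7.92e-06, limma), which were 0.36 and -0.32 with the trend removed. The ratio rose by 1.41 on the log2 scale, while with the length and GC trend removed the difference was -0.69.

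The ratio of RAB1B over RAB1A was 0.38, 0.63 and 0.31 in DU145-TFEB and -0.72, -0.82 and -0.62 in DU145-vector. RAB1A had 1773, 1682 and 1886 normalized counts against 3131, 3304 and 3164, and RAB1B had 2313, 2611 and 2338 against 1903, 1867 and 2064. Every DU145-TFEB library was below the controls for RAB1A and above them for RAB1B. Their log2 fold changes were -0.85 ± 0.07 and 0.32 ± 0.08 (SE; adjusted p = 7.19e-06 and 0.00347, limma). With the trend removed they were -0.09 (adjusted p = 0.185, limma) and -0.84 (adjusted p = 1.71e-06, limma). The difference of 1.162 was -0.75 with the trend removed, and exons of 1 gene on the opposite strand cover 29.4% of the length of RAB1B, as another does for 22.9% of RAB1A.

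RAB3 genes showed the widest shifts. The ratio of RAB3D over RAB3B was -0.37, -0.36 and -0.77 in DU145-TFEB and -3.38, -3.78 and -3.63 in DU145-vector, a difference of 3.10 that was 1.53 with the trend removed. Per kilobase RAB3B was above RAB3D in DU145-vector (278.8 ± 9.78 against 67.4 ± 11.6) and below it in DU145-TFEB (79.9 ± 12.7 against 163.2 ± 7.63; SD, n = 3 each). RAB3A had normalized counts of 92.6, 105.6 and 118.4 in DU145-TFEB and 43.1, 54.6 and 69.0 in DU145-vector. Its ratio over RAB3B was -3.39, -3.07 and -3.34 in DU145-TFEB and -6.37, -5.95 and -5.71 in DU145-vector, a difference of 2.74 that was 0.73 with the trend removed. The ratio of RAB3D over RAB3A overlapped between the groups, with a difference of 0.35 (exact permutation p = 0.3).

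RAB5C over RAB5A moved from -0.34, -0.15 and -0.04 in DU145-vector to 1.62, 1.88 and 1.11 in DU145-TFEB, a difference of 1.71 that was 0.22 with the trend removed. RAB6B over RAB6A, the pair of Golgi switches for transport back toward the ER, differed by 1.14, and by 0.07 with the trend removed. RAB6A had 1600, 1318 and 1619 against 2627, 2555 and 2426, and RAB6B had 1384, 1200 and 1353 against 1067, 895.3 and 1037. The groups did not overlap for either gene. Their log2 fold changes of -0.75 and 0.39 were -0.04 and 0.03 with the trend removed, and neither then passed (adjusted p = 0.639 and 0.794, limma). RAB8A over RAB8B, in which both members were lower, differed by 1.56, and by -0.16 with the trend removed. RAB27B over RAB27A differed by 0.29, the least of the 9, and by 0.38 with the trend removed. The sign of 3 of the 9 differences, those of RAB1, RAB8 and RAB11, thus turned when the trend was removed. The exact permutation p was then 0.4 for RAB8, 0.3 for RAB5 and for RAB6, and 0.2 for RAB3D over RAB3A. For the other ratios it was 0.1, the smallest possible. The RAB8 ratio therefore turned without separating the 2 groups.

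**Figure D4:**
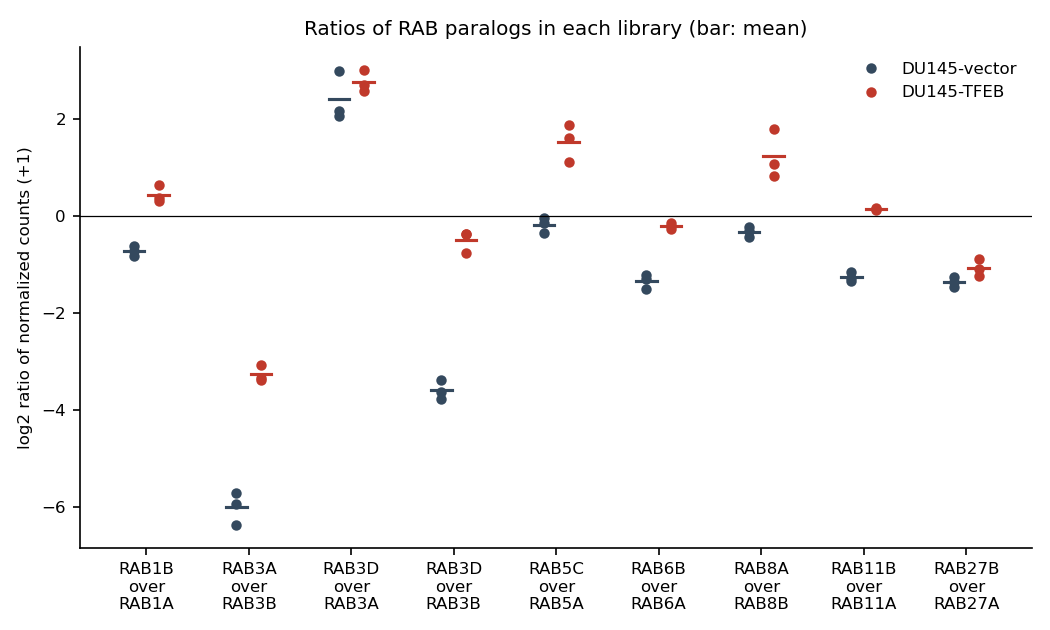
Log2 ratio of normalized counts (+ 1) of RAB paralogs (y axis) in each DU145-vector (dark) and DU145-TFEB (red) library, with group means as bars, before any removal of the length and GC trend. All pairs but RAB3D over RAB3A separate the 2 groups, and RAB3D over RAB3B moves most (from -3.60 to -0.50). With the trend removed the differences of the RAB1, RAB8 and RAB11 ratios are below zero. The groups then overlap for the RAB5, RAB6 and RAB8 ratios and for RAB3D over RAB3A.

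Levels of different genes were compared as normalized counts per kilobase of exonic length. RAB7A was the most abundant listed RAB in both groups, at 2015 ± 15.6 per kilobase with TFEB overexpressed and 1633 ± 78.8 with the vector (SD, n = 3 each). It made up 17.6% of the summed level of the 36 members in DU145-TFEB and 13.9% in DU145-vector. RAB1B followed in DU145-TFEB at 1206 ± 82.2 and overlapped with RAB34 at 1152 ± 157.3 per kilobase, whereas in DU145-vector RAB1B, RAB1A and RAB34 overlapped each other in turn at 968.8, 966.1 and 925.0. The lowest levels were those of RAB9B in DU145-TFEB, at 5.44 ± 1.07, and RAB38 in DU145-vector, at 10.8 ± 1.31. RAB38 is hence scarce beside RAB7A even after its rise, at 39.9 ± 7.40 per kilobase.

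The sum over all 36 members was 11420 ± 226.7 per kilobase in DU145-TFEB and 11740 ± 62.2 in DU145-vector, a ratio of 0.973. The groups did not overlap, but their nearest libraries almost met, at 11680 in DU145-TFEB and 11690 in DU145-vector. Late endosome and lysosome members made up 28.9%, 29.5% and 28.7% of this sum in DU145-TFEB and 23.5%, 22.5% and 23.7% in DU145-vector. This share was higher in all 3 DU145-TFEB libraries (exact two-sided permutation p = 0.1, the smallest possible), and most of it was RAB7A. The shares of the other 5 role groups were lower, from 36.4% against 38.7% for ER and Golgi traffic to 2.73% against 3.10% for the smallest group. Among paralog sets the summed level of RAB27A and RAB27B was 0.401-fold that of the control and that of RAB8A and RAB8B was 0.510-fold. The summed level of RAB11A and RAB11B was 1.19-fold, and that of RAB5A and RAB5C overlapped between the groups at 0.956-fold (exact permutation p = 0.3). These sums are on the deposited scale and were not computed under other scalings. The median log2 fold change over all listed genes moved from -0.36 to -0.12 with DESeq2 size factors. A small difference, such as that of the sum over 36 members, may therefore turn in direction with the scaling.

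The proteins that load, switch off, anchor or read RABs were taken from lists written from general knowledge. Of 165 such genes 120 were listed, with 50 higher and 70 lower at an adjusted p below 0.05 and 2 higher and 25 lower at both cutoffs. Their median was -0.53 on the log2 scale. With the trend removed 15 were higher, 79 lower and 26 did not pass, 3 were higher and 2 lower at both cutoffs, and the median was -0.39. The 25 lower genes at both cutoffs were 12 to 16 with DESeq2 size factors, the upper quartile, quantile normalization or DESeq2 on the reads. Counts on the deposited scale and with the trend removed are to be read against the shares of the whole table given above. For the other scalings such shares are not given here.

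Of the 7 listed membrane cycling and prenylation genes 3 were higher and 4 lower, and with the trend removed 0 were higher, 5 were lower and 2 did not pass. GDI2, which extracts RABs from membranes, fell from a mean of 5672 to 1823 normalized counts (log2 fold change -1.64 ± 0.08, adjusted p = 2.3e-06, limma), and the change was -1.02 once the trend was taken out. CHM and CHML, the escort proteins that present new RABs for prenylation, had log2 fold changes of -1.43 and -2.14, which were -0.36 (adjusted p = 0.0906, limma) and -1.08 with the trend removed. The prenyl transferase subunits RABGGTB and RABGGTA had log2 fold changes of -0.83 and 0.57, and RABAC1, which helps RABs onto membranes, had 0.71, the highest of the 7. RABGGTA (-0.48) and RABAC1 (-0.47) were below zero and RABGGTB (0.15) above zero with the trend removed, whereas GDI2, CHML and CHM were below zero on both scales.

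Exchange factors had 16 members higher and 24 lower, with 0 higher and 9 lower at both cutoffs among 40 listed. With the trend removed 4 were higher, 28 lower and 8 did not pass, and 0 were higher and 2 lower at both cutoffs. The largest falls were those of DENND4A (-2.17), TRAPPC8 (-2.07), DENND4C (-2.004), DENND1B (-1.84) and SBF2 (-1.71), which stood between -1.21 and -0.76 with the trend removed. TRAPPC8 belongs to a TRAPP complex that activates RAB1, and the DENND proteins are exchange factors for endosomal and surface RABs such as RAB10 and RAB35. The highest value, 0.94 for the TRAPP subunit TRAPPC5, was 0.04 with the trend removed.

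GTPase-activating proteins had 15 members higher and 17 lower, with 1 higher and 5 lower at both cutoffs among 32 listed. Without the trend 5 were higher, 18 lower and 9 did not pass, with 2 higher and 0 lower at both cutoffs. RAB3GAP1 and RAB3GAP2 form 1 enzyme that switches off RAB3 and loads RAB18, and both fell, with log2 fold changes of -1.83 ± 0.11 and -2.14 ± 0.20 (adjusted p = 2.97e-06 and 1.19e-05, limma). They were -1.16 and -1.07 with the trend removed. TBCK (-1.997) and TBC1D23 (-1.67) were lower too, at -0.91 and -0.78 with the trend removed. TBC1D30, a protein that acts on RAB8, rose from a mean of 13.5 to 47.6 normalized counts, a log2 fold change of 1.78 that was 2.52 with the trend removed.

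Effectors and regulators that bind RABs had 16 members higher and 25 lower, with 1 higher and 9 lower at both cutoffs among 41 listed. Once the trend was taken out 6 were higher, 28 lower and 7 did not pass, and 1 was higher and 0 were lower at both cutoffs. LRRK2, a kinase that phosphorylates RAB8A, RAB10 and RAB12 among others, rose from a mean of 5.91 to 42.1 normalized counts (log2 fold change 2.53 ± 0.35, adjusted p = 0.000113, limma) and was at 3.64 with the trend removed. Its lowest library held 6 reads. RIMS2, which ties RAB3 vesicles to release sites, had the largest fall (-2.53), followed by the motor MYO5A (-2.12), RASEF (-1.96) and ACAP2 (-1.87), which stood between -1.44 and -0.75 with the trend removed.

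For comparison, 19 of 28 ARF and ARL genes, a neighbouring family of small GTPases, were listed. Of these 6 were higher and 13 lower, and their median was -0.74 on the log2 scale. The highest value was 1.09 for ARL2, a regulator of microtubules, which was 0.07 with the trend removed. Among all listed genes 47.6% were higher and 52.4% lower, with a median of -0.36. With the trend removed the ARF and ARL median was -0.29, and that of all listed genes was -0.32. No test of the families against each other was made.

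**Figure D5:**
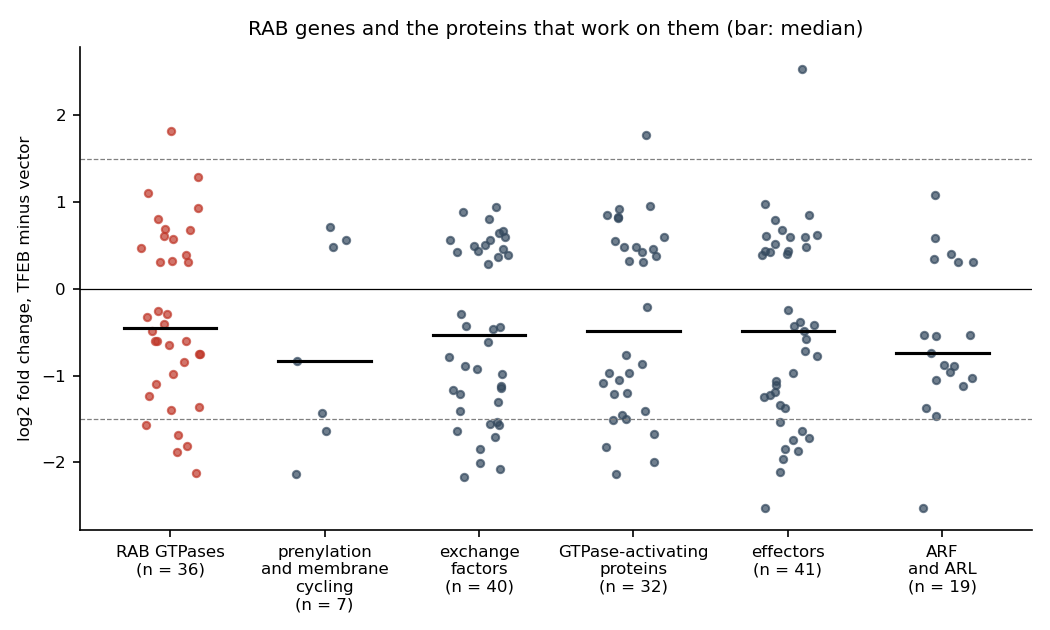
Log2 fold change of DU145-TFEB over DU145-vector on the deposited scale (y axis) for the 36 RAB genes (red), for 4 lists of genes that act on or with RABs and for ARF and ARL genes (dark), with medians as black bars and 1.5 in size as dashed lines. Medians run from -0.83 for the 7 prenylation and cycling genes to -0.45 for the RAB genes, and LRRK2 (2.53) is the highest point.

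TFEB binds a DNA element whose core is CACGTG, so the promoters of the RAB genes were read for it. RefSeq promoters (GRCh38.p14, 250 bases before to 50 bases after a start) were found for 30 of the 36 genes, 47 promoters in all. RAB1A, RAB2A, RAB12, RAB26, RAB33B and RAB38 had no entry. The letters CACGTG, which read the same on both strands, stood in 3 of the 47 promoters, or 6.38%, against 7.26% of all 35116 promoters and 9.19% of those of listed genes. The longer TCACGTGA, which contains the former, stood in 2 of them, or 4.26%, against 0.98% of all promoters and 1.75% of those of listed genes. These shares are per promoter and rest on 3 and 2 matches. Genes such as RAB27A, RAB43 and RAB40C count with several promoters and hold no match, and the 3 matches lie in 3 of the 30 genes. The 250 bases before the start are shown for the 3 genes, 5′ to 3′ on the coding strand, with CACGTG in capitals. They lie at chr3:19946847-19947096 (plus strand) for RAB5A, chr12:71754613-71754862 (plus strand) for RAB21 and chr5:177303720-177303969 (minus strand) for RAB24.
RAB5A: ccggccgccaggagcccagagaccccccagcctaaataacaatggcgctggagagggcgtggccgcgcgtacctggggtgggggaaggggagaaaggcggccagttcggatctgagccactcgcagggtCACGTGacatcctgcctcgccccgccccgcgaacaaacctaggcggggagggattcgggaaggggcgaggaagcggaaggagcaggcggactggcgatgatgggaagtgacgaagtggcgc
RAB21: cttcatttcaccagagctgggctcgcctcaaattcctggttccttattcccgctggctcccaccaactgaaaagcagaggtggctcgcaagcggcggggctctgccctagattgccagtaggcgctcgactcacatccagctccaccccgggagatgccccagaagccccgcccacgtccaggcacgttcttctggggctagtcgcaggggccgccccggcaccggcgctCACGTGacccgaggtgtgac
RAB24: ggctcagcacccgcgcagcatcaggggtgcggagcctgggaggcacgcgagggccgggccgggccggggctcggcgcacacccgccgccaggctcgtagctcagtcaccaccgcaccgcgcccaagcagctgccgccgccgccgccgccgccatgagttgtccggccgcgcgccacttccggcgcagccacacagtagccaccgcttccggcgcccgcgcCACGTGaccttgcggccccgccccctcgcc
The core begins 121 bases before the start in RAB5A, 20 in RAB21 and 30 in RAB24, and RAB5A and RAB21 hold the longer form. The 3 genes had log2 fold changes of -1.24, -0.64 and 0.69, which were -0.66, 0.44 and -0.38 with the length and GC trend removed. A match of these letters is a description and not a binding site.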

How the data were processed

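The 6 RNA-sequencing libraries, 3 of DU145-TFEB and 3 of DU145-vector, were grouped by the sample labels. Per the submitters' processing notes, CASAVA 1.8, HISAT2 2.1.0 and edgeR were used on GRCh38, and the paper names DESeq2. The counting program and its strand setting are not given in the sources used here. The deposited signal is a read count divided by 1 size factor per library. Whole reads were recovered for 100% of the values, within 0.1 read, with size factors from 0.950 to 1.10. The authors also deposited group means, log2 fold changes and p-values, which were not used except to see that every listed adjusted p-value is below 0.05.

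From this signal log2(normalized count + 1) was tested across all 10542 listed genes with limma 3.58.1 (mean-variance trend, R 4.3.3), and fold changes are on that scale. The planned design kept limma for a table that turned out to be normalized. Cutoffs were an adjusted p of 0.05 and, where stated, 1.5 on the log2 scale. edgeR 4.0.16 and DESeq2 1.42.0 were run on the recovered reads as alternatives. The trend against gene length and transcript GC content (GENCODE 29, with which all listed positions and lengths are equal) was removed per library by loess with a span of 0.5. Paralog ratios and sums were compared by exact permutation over libraries. Each library was counted as 1 replicate. Chi-square per gene was 3.00 to 27.6 within and 167 to 331 between groups, in a table selected for a difference between them. These values do not show whether the libraries of a group came from separate cultures.

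Members, role groups and lists were chosen with earlier results of these data known. Every member was named. Values per library were given for members past both cutoffs, for the highest and lowest of each role group and for paralogs in opposite directions, and RAB7A, RAB41, RAB8A, RAB27A and RAB27B were added as the most abundant, the scarcest in reads and remaining paralogs. Of other lists, up to 5 genes past both cutoffs and the extremes were named, with further membrane cycling genes, and some genes on this rule are not reported here. Scripts were tested on simulated data.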

Additional observations from a re-analysis of the deposited data

How the results depend on the processing

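Depth limits RAB41 most, which a filter of at least 10 reads in every library removed. The table's selection on these libraries and the 3 libraries a group limit every test. The median over all listed genes was -0.36 on the deposited scale and -0.32 with the length and GC trend removed. It was -0.12 with DESeq2 size factors, -0.18 with the upper quartile and -0.03 with quantile normalization. Changes are relative to these medians. The cause of the changes below was not tested.

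The median of the RAB genes was -0.45, and it was -0.21 with DESeq2 size factors and with DESeq2 on the recovered reads, -0.27 with the upper quartile, -0.28 with quantile normalization and -0.24 with the GC and length trend removed. At both cutoffs 2 RAB genes were higher and 3 lower with DESeq2 size factors and with DESeq2 on the reads, 3 higher and 2 lower with quantile normalization, and 3 higher and 9 lower with a cutoff of 1. With the GC and length trend removed 0 were lower at both cutoffs, and 9 were higher at an adjusted p below 0.05. Of the genes that act on RABs, 2 were higher and 25 lower at both cutoffs. The lower ones were 14 with DESeq2 size factors, 16 with the upper quartile, 12 with quantile normalization or with DESeq2 on the reads, 2 with the trend removed (with or without the block) and 46 with a cutoff of 1, and the higher ones were 1 with the filter of 10 reads. With each library left out 17 to 30 were lower. Shares of all listed genes called in the other scalings, with a library left out or at a cutoff of 1 are not given here. Whether these counts differ from the table as a whole was therefore not tested.

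The replicate numbers did not pair the libraries (correlations of deviations of -0.02, -0.25 and -0.14), and with the replicate block 36 of 36 RAB genes kept direction and call. With the block and the trend removed together 8 were higher at an adjusted p below 0.05, 0 were lower at both cutoffs, and the median was -0.24. With each library left out, the median ranged from -0.48 to -0.40, 1 RAB gene was higher and 4 to 6 lower at both cutoffs, 14 were higher and 22 lower at an adjusted p below 0.05, and RAB9B lost and RAB41 (without DU145-TFEB replicate 3) gained both cutoffs.

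Among the RAB genes, the directions that turned with the trend removed, with or without the block, were those of RAB26 (0.00), RAB3A (-0.19), RAB11B (-0.32), RAB24 (-0.38), RAB5C (-0.44), RAB40C (-0.46), RAB43 (-0.48), RAB34 (-0.73), RAB1B (-0.84), RAB10 (0.16), RAB18 (0.25), RAB11A (0.36), RAB22A (0.41), RAB14 (0.42), RAB21 (0.44) and RAB2A (0.68). These signs are read against zero, and RAB26 and RAB3A did not pass the test there. Of other genes named in the text RABAC1 (-0.47), RABGGTA (-0.48) and RABGGTB (0.15) turned, as did the ratios of RAB1 (-0.75), RAB8 (-0.16) and RAB11 (-0.69). For the RAB8 ratio the groups overlapped with the trend removed (exact permutation p = 0.4). RAB8A turned to 0.074 with quantile normalization.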
